A study of Homo sapiens with 6 samples.

Results

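PVT1 is a long non-coding RNA gene on the long arm of chromosome 8, just downstream of the MYC oncogene, and its back-spliced RNAs were examined here in a Gemcitabine sensitive and a Gemcitabine resistant pancreatic cancer cell line. All junctions that the deposited circRNA table assigns to PVT1 were taken, which gave 4 of 7746 junctions. The table covers 6 RNA libraries, 3 of PANC-1 and 3 of PANC-1-GR. PANC-1, an established human pancreatic ductal carcinoma line, was the untreated control and is called the sensitive line here. PANC-1-GR, called the resistant line, was derived from it by selection for 40 weeks in Gemcitabine raised from 0.1 to 200 μg/ml, and 10 μg/ml was added from time to time to keep it resistant. The sources used here do not say whether PANC-1-GR is a single clone or whether its libraries, or those of PANC-1, are separate cultures, so the p-values given here speak to the spread among these 6 libraries, and that spread may be technical. A figure legend of the published study calls the lines 3 paired ones without saying what pairs them. The main test here is unpaired. The identity of the lines was not checked against marker genes, because linear mRNA was not analysed here.

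A circRNA forms by back-splicing, in which the downstream border of an exon joins the upstream border of that exon or of one before it. The closed ring has no free ends and is usually more stable than linear RNA. PVT1 lies in a region that is often gained in tumors together with MYC, and its locus also holds several microRNA genes. The circle made of its long second exon, known as circPVT1, has been described in several cancers and in ageing cells, where binding of microRNAs such as let-7 was proposed for it. Each value below rests on reads across a back-splice junction, taken here as reads of the circle.

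Of the 4 PVT1 junctions, 2 had a circBase ID and 2 had none, and all lay on the plus strand of chromosome 8. Positions are given on hg19, the build of the table. The main circle, hsa_circ_0001821, ran from 128902835 to 128903244, with a span and a predicted length of 410 bases, in the exonic category. A further circle, hsa_circ_0008849, ran from 129021836 to 129022690, a span of 855 bases with a predicted length of 256 bases. An exonic junction without an ID ran from 129010446 to 129022690, a span of 12245 bases with a predicted length of 416 bases, so it shared its end with hsa_circ_0008849. The remaining junction, from 128973365 to 128973524, was listed as intronic, with a span of 160 bases and no ID. The main circle ended 118591 bases before the start of hsa_circ_0008849, and no junction joined its exon to a later exon of PVT1.

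The exon structure of these circles was read from GENCODE release 29, which is on another build, so only distances between exon borders were compared and no position was carried over. Taking the start of the main circle as the origin, its borders fell on the borders of exon 2 of transcript PVT1-212, an exon of 410 bases. An exon starts at this place in 8 annotated transcripts and ends at the end of the circle in 5. The start of hsa_circ_0008849, 119001 bases further on, and its end, at 119855 bases, fell on the start of exon 4 and the end of exon 5 of transcript PVT1-214. These exons are 129 and 127 bases long, which sums to the predicted 256. The junction of 12245 bases began 107611 bases from the origin, at exon 3 of the same transcript, and the 160 bases of that exon bring the sum to the predicted 416. The intronic junction lay on no annotated exon of the 25 PVT1 transcripts. The exonic PVT1 circles therefore came from 2 separate places in the gene, an early single exon and a later run of 3 exons.

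**Figure D1:**
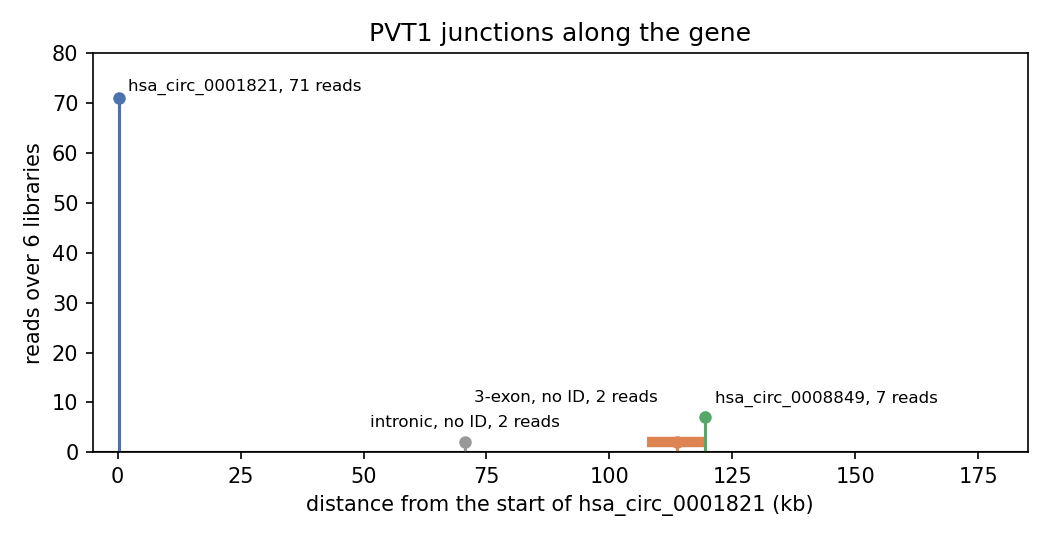
The 4 PVT1 junctions are drawn to scale by distance from the start of hsa_circ_0001821 (x axis, kb) against their reads summed over 6 libraries (y axis), with horizontal bars for their spans. The main circle at the origin has 71 reads, and the junctions further along the gene have 2, 2 and 7.

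Because let-7 has been proposed as a partner of the PVT1 circle, the mature let-7a from RefSeq is shown, with its seed (bases 2 to 8) in capitals and the rest in lower case.
hsa-let-7a-5p: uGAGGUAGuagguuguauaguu
The DNA letters that pair with this seed, CTACCTC, were searched in the RNA sense only along the 410 bases of exon 2 in GENCODE, closed into a ring so that the back-splice was covered. They occurred 0 times. Among 936 annotated long non-coding exons of 400 to 420 bases, 2.78% held the same letters. The search covered perfect matches to these letters and no other form of pairing. The GC content of the circle was 50.7%, beside a median of 47.0% for those exons.

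The 4 junctions had 82 reads over the 6 libraries, and hsa_circ_0001821 held 71 of them, a share of 86.6% (95% Clopper-Pearson interval 77.3 to 93.1). This circle had 19, 8 and 10 reads in sensitive replicates 1, 2 and 3 of PANC-1, against 15, 8 and 11 in the resistant replicates of PANC-1-GR. Sensitive replicate 1 was the highest library and sensitive replicate 2 the joint lowest, so that the sensitive libraries enclosed all resistant ones. With the same level in all 6 libraries, 12.7 reads would fall in sensitive replicate 1 and 12.5 in sensitive replicate 2 by library size, against the 19 and 8 that were read. The resistant libraries had 15, 8 and 11 reads where 14.5, 9.78 and 11.5 would fall by size. Summed over a line there were 37 sensitive and 34 resistant reads, and the ratio of the levels, resistant over sensitive, was 0.902 (95% Clopper-Pearson interval 0.549 to 1.48).

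Libraries held 9222 to 13689 junction reads, and levels are given as reads per 10000 of these. The level of hsa_circ_0001821 was 15.9 in sensitive replicate 1 (95% Clopper-Pearson interval 9.56 to 24.8), 6.79 in replicate 2 (2.93 to 13.4) and 10.6 in replicate 3 (5.09 to 19.5). In the resistant line it was 10.96 in replicate 1 (6.13 to 18.1), 8.67 in replicate 2 (3.75 to 17.1) and 10.1 in replicate 3 (5.04 to 18.1). The intervals of all 6 libraries overlapped, and like all intervals on reads here they cover no more than counting error, because no molecular identifiers are described for these reads, which then need not be independent molecules. The mean level was 11.1 ± 4.57 (SD, n = 3) in the sensitive line and 9.91 ± 1.15 (SD, n = 3) in the resistant line. The lines thus overlapped, and in 10.8% of the tested circRNAs they did not. Of the 20 ways to divide 6 libraries into 3 and 3, a fraction of 0.1 separates them fully with no difference between lines. On the log2 CPM scale of the authors the circle was at 10.66, 9.50 and 9.99 in the sensitive line and 10.16, 9.81 and 10.00 in the resistant line, with sensitive replicate 1 again the highest and replicate 2 the lowest library.

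**Figure D2:**
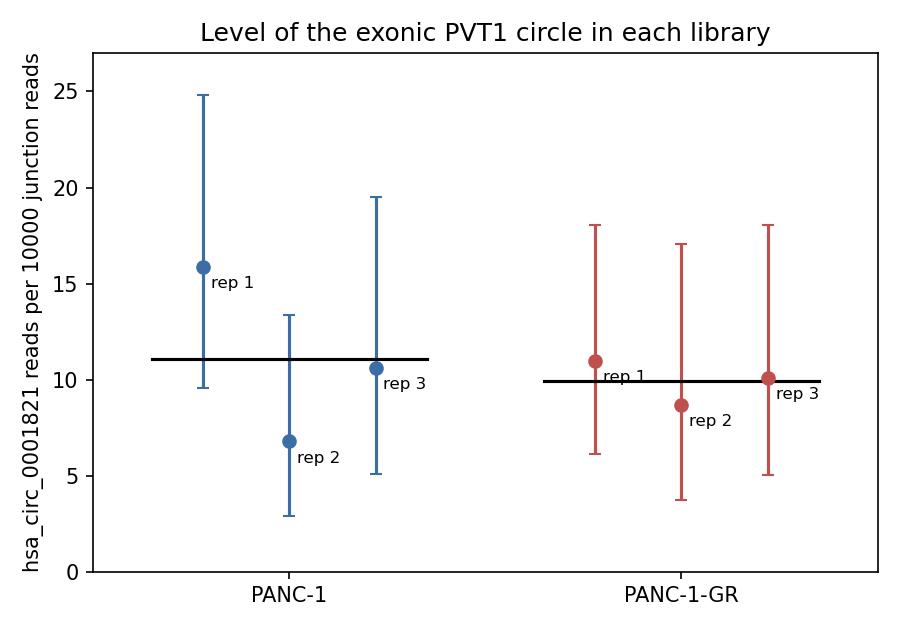
Level of hsa_circ_0001821 (y axis, reads per 10000 junction reads) in each library of PANC-1 and PANC-1-GR (x axis), with 95% Clopper-Pearson intervals of counting error as bars and the mean of each line as a horizontal line. The lines overlap, and PANC-1 holds both the highest library, at 15.9, and the lowest, at 6.79.

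To ask whether the circle differed in the resistant line, the counts of 969 circRNAs, those that reached 3 reads in 3 or more libraries, were put to the edgeR quasi-likelihood test. The log2 fold change of hsa_circ_0001821 in the resistant against the sensitive line was -0.16 (standard error 0.39, 95% interval -0.93 to 0.60), with an unadjusted p of 0.674 and an adjusted p of 0.985 in the edgeR test. On the linear scale this is a fold of 0.892 with an interval from 0.524 to 1.52. The circle was thus not called by the rule that asks for a change of 2-fold or more with an unadjusted p no higher than 0.05, which 4.23% of the tested circRNAs passed, 2.79% as higher and 1.44% as lower in the resistant line. After adjustment no circRNA had p under 0.05 in the edgeR test (0 of 969, with 49 at an unadjusted p of at most 0.05, 0 by DESeq2, limma-voom or the edgeR exact test, and 1 by limma on the log2 CPM values of the authors). The direction of the small difference depended on sensitive replicate 1. Without it the log2 fold change was 0.23 (95% interval -0.70 to 1.15), while without any other single library it lay between -0.43 and -0.08. A change of 2-fold or more lay outside the interval with all libraries, but not outside those of 5 of the 6 fits with a library left out, nor outside that of DESeq2, from 0.456 to 1.73 on the linear scale, or of limma on the log2 CPM values of the authors, from 0.445 to 2.07.

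**Figure D3:**
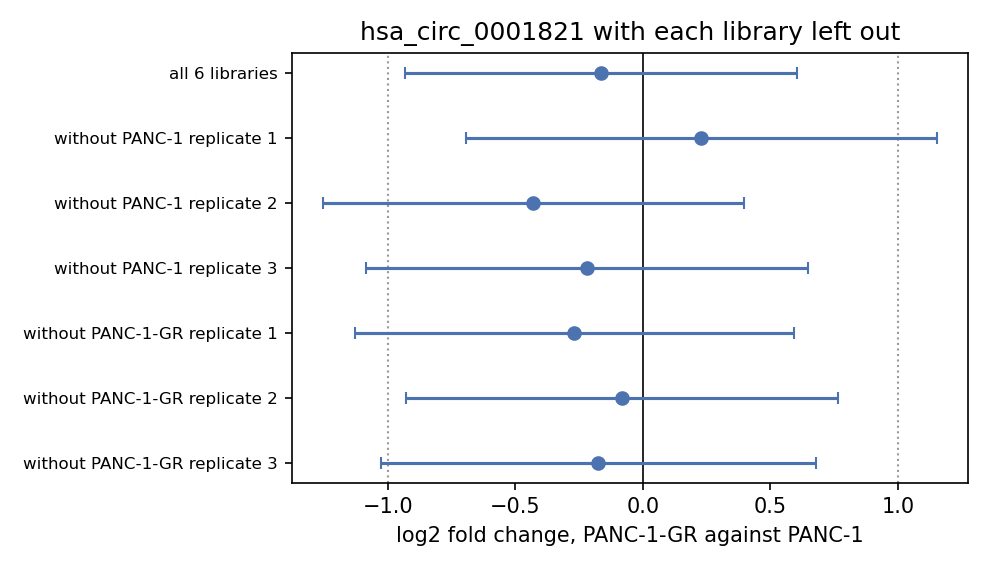
Log2 fold change of hsa_circ_0001821 in the resistant against the sensitive line (x axis) with all 6 libraries and with each library left out (y axis), with 95% intervals of the edgeR quasi-likelihood fit as bars and dotted lines at a 2-fold change. All intervals include 0, and the value is above 0, at 0.23, without PANC-1 replicate 1.

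The other 3 junctions had 11 reads in all, 5 in the sensitive line and 6 in the resistant line, and none had enough reads to pass the filter. In the edgeR fit with no filter none of them was called, where 124 of 7746 circRNAs were. The adjusted p in this edgeR fit was 0.891 for hsa_circ_0008849, 0.696 for the 3-exon junction and 0.696 for the intronic junction. The last 2 had all their reads in 1 line, and log2 fold changes of -2.64 and 2.62 with a standard error of 2.97 each. At 2 reads each they could not have been called, so no conclusion is drawn from this for them. The circle hsa_circ_0008849, of exons 4 and 5, had 3, 0 and 0 reads in the sensitive line and 3, 1 and 0 in the resistant line. Its ratio of levels, pooled over the libraries of a line, was 1.31 for the resistant over the sensitive line (95% Clopper-Pearson interval 0.221 to 8.93), which leaves its direction undetermined at this depth. The 3-exon junction had 2 reads, both in sensitive replicate 1, and the intronic junction had 2 reads, both in resistant replicate 1. With 7, 2 and 2 reads these junctions were near the table's lower limit, as no circRNA is in the table with fewer than 2 reads in its highest library. Replicate 1 of the 2 lines held 10 of the 11 reads, and the remaining read was in resistant replicate 2. The 3 libraries without such a read, sensitive replicates 2 and 3 and resistant replicate 3, allow a level of up to 2.55, 3.18 and 2.76 per 10000 (3 reads of the library total). The summed level of these junctions was 1.39 ± 2.41 (SD, n = 3) in the sensitive line and 1.58 ± 1.88 (SD, n = 3) in the resistant line (two-sided exact permutation test, p = 1, with 0.1 as the smallest p that 3 libraries against 3 allow). The difference, 0.186 higher in the resistant line, turned to -0.511 without sensitive replicate 2 or 3 and to -0.851 without resistant replicate 1.

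**Figure D4:**
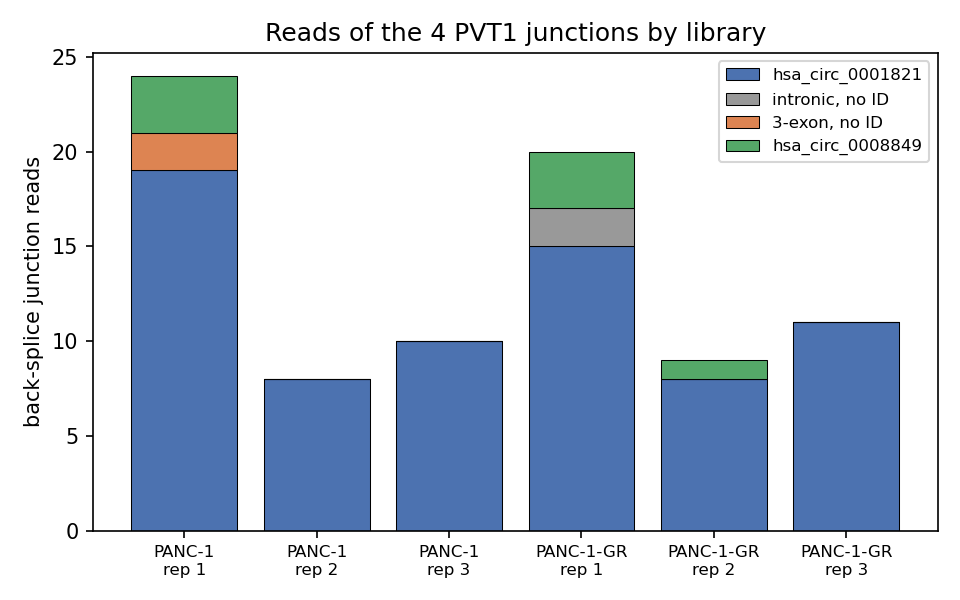
Back-splice junction reads (y axis) of the 4 PVT1 junctions stacked by library (x axis). The main circle makes up all PVT1 reads in 3 libraries, and the other junctions appear in replicate 1 of the 2 lines, with 5 reads each, and with 1 read in resistant replicate 2.

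The share held by the main circle was 79.2% of 24 PVT1 reads in sensitive replicate 1 (95% Clopper-Pearson interval 57.8 to 92.9), 100% of 8 reads in replicate 2 (63.1 to 100) and 100% of 10 in replicate 3 (69.2 to 100). In the resistant line it was 75.0% of 20 reads in replicate 1 (50.9 to 91.3), 88.9% of 9 in replicate 2 (51.8 to 99.7) and 100% of 11 in replicate 3 (71.5 to 100). The lines overlapped, and replicate 1 had the lowest share in each of them. Pooled over a line, the share was 88.1% in the sensitive line (74.4 to 96.0) and 85.0% in the resistant line (70.2 to 94.3). The mean share was 93.1 ± 12.03% (SD, n = 3) and 88.0 ± 12.5% (SD, n = 3), and the two-sided exact permutation test gave p = 0.7. The difference of -5.09 percentage points became 1.39 without resistant replicate 1. The number of PVT1 junctions with a read was 3, 1 and 1 in the sensitive line and 3, 2 and 1 in the resistant line (two-sided exact permutation test, p = 1). With every library thinned to 9222 reads the expected numbers were 2.94, 1 and 1 in the sensitive line and 2.86, 2 and 1 in the resistant line. Thinning levels the total of junction reads and not the PVT1 reads, which were highest in replicate 1 of each line. The 3-exon and the intronic junction are also listed only through 2 reads in a replicate 1 library. Thinning cannot undo this, so no conclusion on replicate 1 is drawn.

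The sum of all PVT1 junction reads, set against the library total, describes how abundant the listed PVT1 circles were. It does not measure how fast they were made. These reads numbered 24, 8 and 10 in the sensitive line and 20, 9 and 11 in the resistant line, so the 2 replicates numbered 1 were above the other 4 libraries. The summed level was 12.5 ± 6.83 per 10000 (SD, n = 3) in the sensitive line and 11.5 ± 2.71 (SD, n = 3) in the resistant line (two-sided exact permutation test, p = 0.8). In the edgeR fit of reads summed per host gene, the log2 fold change of PVT1 was -0.08, with a standard error of 0.36, a 95% interval from -0.79 to 0.64 and an adjusted p of 0.996, while 3.66% of the 1093 tested host genes passed the rule of 2-fold and unadjusted p given above. Its sign turned without sensitive replicate 1 (0.48), without resistant replicate 2 (0.02) or 3 (0.02), and with limma-voom (0.04). Without sensitive replicate 1 the summed level was 2.79 per 10000 higher in the resistant line, where the difference with all libraries was -0.994. Fewer cells that make a circle and fewer circles per cell cannot be told apart in such bulk libraries.

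In the order of mean levels over the 6 libraries, hsa_circ_0001821 was number 90 of 7746, with 10.5 ± 3.05 per 10000 (SD over 6 libraries). By reads it was number 40, 194 and 106 in the sensitive libraries and 85, 145 and 104 in the resistant libraries. Next above it were a circle of the zinc finger gene ZNF124, with 10.6 ± 1.20 (SD, n = 6), and hsa_circ_0000857 of the zinc finger gene ZNF236, with 10.6 ± 5.88 (SD, n = 6). Next below were hsa_circ_0006922 of ASXL1, a chromatin regulator gene, with 10.5 ± 2.22 (SD, n = 6), and hsa_circ_0001333 of ZNF148, a zinc finger transcription factor gene, with 10.5 ± 2.20 (SD, n = 6). These circles were taken for their nearness in mean level, and their differences from the PVT1 circle were within the spread over libraries. Among the 371 exonic circles whose predicted length equals their span, that is circles of 1 unspliced stretch, it was number 14.

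The concentration of PVT1 reads in 1 circle was set beside that of other host genes. Of 526 host genes with at least 30 junction reads, the leading circle held a median of 56.2% of the reads, and in 100 of them, PVT1 included, it held at least as much as in PVT1. A gene with 1 listed junction has a share of 100% by definition. In the 489 with more than 1 listed junction the median was 53.7%, and 63 of them, PVT1 included, had a share at least as high. Of the 61 such genes with 4 listed junctions like PVT1, the median was 59.0%, and 5 of them, PVT1 included, had a share at least as high as that of PVT1. The share of PVT1 was thus above the median of each set, which is a description of the table and not a test.

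**Figure D5:**
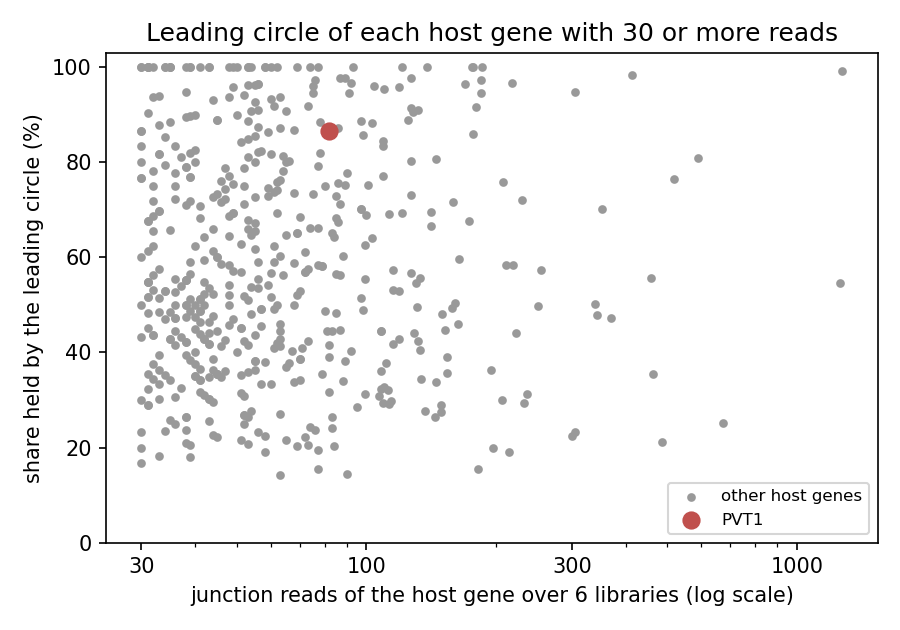
Share of junction reads held by the leading circle (y axis, percent) against the junction reads of the host gene over 6 libraries (x axis, log scale) for the 526 host genes with at least 30 reads. PVT1, in red, has 82 reads and a share of 86.6%, beside a median share of 56.2%.

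The 5 circles most like hsa_circ_0001821 across the 6 libraries, among 356 others with at least 30 reads, came from GCN1L1, PPP6R2, VEGFC, ABHD2 and PICALM. The Pearson r of levels was 0.93 for hsa_circ_0000448 of GCN1L1, which encodes an activator of the stress kinase GCN2. It was 0.88 for hsa_circ_0001258 of PPP6R2, a regulatory subunit of protein phosphatase 6, and 0.88 for hsa_circ_0004496 of VEGFC, a growth factor of lymphatic vessels. For hsa_circ_0007099 of ABHD2, a lipid hydrolase, and hsa_circ_0023923 of PICALM, a clathrin assembly protein, it was 0.87 each. The GCN1L1 circle had 18, 6 and 10 reads in the sensitive line and 10, 7 and 8 in the resistant line. Sensitive replicate 1 had the highest level for all 5 circles, as for PVT1. The 5 were picked for likeness to the PVT1 circle over these same libraries, so this shared peak follows largely from the choice. The r of all 356 circles ran from -0.96 to 0.93 with a median of -0.08. These values describe 6 shared libraries with few reads per circle and carry no test.

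Junctions of genes near PVT1 on 8q24 were described from a list of 31 genes, of which 6 had listed junctions, 26 in all. MYC itself had none in the table. Most reads belonged to ASAP1, a GTPase-activating protein gene of Arf proteins, with 16 junctions and 184 reads in the sensitive line and 186 in the resistant line. Its hsa_circ_0008934, from 131164982 to 131193126, had 25, 36 and 20 reads in the sensitive line and 30, 27 and 37 in the resistant line, and its log2 fold change was 0.19 ± 0.26 (standard error). Its hsa_circ_0001824, from 131164982 to 131181313, had 11, 15 and 10 reads in the sensitive line and 10, 11 and 11 in the resistant line, and its log2 fold change was -0.20 ± 0.40 (standard error). The other 5 genes, TMEM65, SQLE, KIAA0196, NSMCE2 and FAM49B, had 5 to 9 reads each. Sensitive and resistant reads were 1 and 8 for TMEM65, 2 and 6 for NSMCE2 and 1 and 6 for FAM49B. For SQLE and for KIAA0196 they were 3 and 2. Of the 26 junctions, 4 passed the filter, all of ASAP1, and none was called, where 4.23% of all 969 tested were. A count from 4 junctions of 1 gene is too small to set against that share. Their median log2 fold change was -0.02 beside -0.04 over all 969 tested. ASAP1 held 370 of the 404 reads of the 26 junctions, so their sum mainly describes that gene. The summed level of the 26 junctions was 58.4 ± 10.6 per 10000 (SD, n = 3) in the sensitive line and 63.0 ± 8.07 (SD, n = 3) in the resistant line (two-sided exact permutation test, p = 0.6). This difference of 4.53 became -0.453 without sensitive replicate 1.

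Circles of other long non-coding genes were described from a list. Of its 36 genes, 8 had listed junctions, 12 junctions with 42 reads in all. The most abundant within the list was hsa_circ_0005270 of MEG3, an imprinted gene, with 2, 1 and 0 reads in the sensitive line and 4, 2 and 2 in the resistant line. Next were hsa_circ_0075828 of CASC15, with 3, 2 and 0 reads in the sensitive line and 1, 0 and 1 in the resistant line, and junctions of 4 and 3 reads in MALAT1, a nuclear speckle RNA. None of the 12 junctions passed the filter, so no fold change is given for this list.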

How the data were processed

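The 6 libraries hold total RNA of PANC-1 and PANC-1-GR, and the sample labels give line and replicate number. The authors deposited whole-number counts of back-splice junction reads per circRNA and library on hg19, and beside them log2 CPM values that the file header credits to edgeR. CASAVA 1.8, BWA and hg19 are named, without a role, by the processing notes of the submitters. The sources used here give no junction caller, read length or read total, so precision rests on 9222 to 13689 junction reads per library. One circRNA was not analysed here.

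Counts were tested in R 4.3.3 by edgeR 4.0.16, with its quasi-likelihood test (TMM, two-sided, total junction reads as library size, prior count 0.125, Benjamini-Hochberg adjustment over all tested circRNAs), without a replicate block. The filter was at least 3 reads in at least 3 libraries. Standard errors are the log2 fold change divided by the square root of F. Levels and shares were compared with exact permutation tests. Alternatives were RLE factors, library totals alone, no filter, at least 10 reads in 3 libraries, DESeq2 1.42.0, limma-voom (limma 3.58.1), the edgeR exact test, prior count 2, a replicate block and each library left out. Limma on the log2 CPM values of the authors was added after the data were seen.

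Named were every PVT1 junction, the 2 most read circles of the 8q24 list and the 4 of the long non-coding list, the 2 circles above and the 2 below the main circle by mean level, and the 5 with the highest Pearson r to it. The members and lists were chosen with earlier results of these data known. Sequences and exons came from RefSeq (GRCh38.p14) and GENCODE release 29.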

Additional observations from a re-analysis of the deposited data

How the results depend on the processing

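In the edgeR, DESeq2 and limma fits no PVT1 result passed its threshold under any alternative run. The exact tests could not have passed one, as permutation of 3 libraries against 3 cannot go below p = 0.1 (exact test). Permutation with 1 library left out, and sign flips over 3 pairs, cannot reach p = 0.05 in an exact test either. Over the 16 alternatives for hsa_circ_0001821 the lowest unadjusted p was 0.303 and the lowest adjusted p 0.890 (edgeR, DESeq2 or limma), and 15 kept the direction, with log2 fold changes of -0.21 to -0.06 among those that used all libraries. Leaving out 1 library gave -0.43 to 0.23 for this circle, -0.39 to 0.48 for PVT1 reads summed, -3.84 to 2.79 for the summed level, -0.851 to 1.58 for the other junctions, -12.04 to 1.39 percentage points for the share, -0.167 to 1 for the number of junctions, -0.453 to 10.1 for the 8q24 genes and 38 to 52 for called circRNAs. Limma-voom turned PVT1 reads summed to 0.041. Called circRNAs, 41 of 969 in the edgeR test, were 124 of 7746 with no filter and 6 of 148 with at least 10 reads in 3 libraries. They were 14 of 969 with DESeq2 and 21 of 969 with prior count 2. Every other alternative also tested 969 circRNAs. With prior count 2 the number at an unadjusted p of at most 0.05 stayed at 49 (edgeR test), so fewer of these reached a 2-fold change. The cause of the other shifts was not tested. This holds also for the filters, which change the number of circRNAs tested. Samples of the same number shared little, as their deviations from the line means had a Pearson r of 0.01 to 0.02 across circRNAs. With replicate number as a block the log2 fold change was -0.18 for hsa_circ_0001821 and -0.10 for PVT1 reads summed, 28 circRNAs were called, and sign flips within numbers gave p = 0.5 or more (exact test) for the share and the levels. The other junctions of PVT1 were fitted with no filter only. None was called, which for the 2 junctions of 2 reads was fixed by their depth. With 82 PVT1 reads in all, depth limits every comparison.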

Other observations

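Host genes were also matched by symbol to the long non-coding genes of GENCODE release 29, a choice made after the data were seen. Of 3348 host genes 94.7% were found in that annotation, and 25 of them were long non-coding, with 42 junctions and 253 reads over the 6 libraries. PVT1 had the most reads of the 25, with 82, or 32.4% of the total, and was number 142 of all host genes. A match by symbol misses hosts under other names, so this order and share hold for the 25 only. Not among them were XLOC_008269 with 48 reads and RP11-632K20.7 with 34. SNORD114-1 with 214 reads, SNORD113-5 with 125 and SNORD113-4 with 109 were also outside the 25. Whether these 5 hosts are long non-coding was not determined here. Next among the 25 was ZNF337-AS1, with 29 reads over 4 junctions, 14 in the sensitive line and 15 in the resistant line. LINC01473 had 16 reads, 6 in the sensitive line and 10 in the resistant line, and TTN-AS1, which is transcribed opposite the muscle protein gene TTN, had 15 reads in 1 junction, 5 in the sensitive line and 10 in the resistant line. The junction of TTN-AS1, hsa_circ_0004305, had 2, 3 and 0 reads in the sensitive line and 2, 4 and 4 in the resistant line. The sources used here do not say how the strand of such antisense junctions was set. Of the 25 genes 11 had under 5 reads.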
